A study of Mus musculus with 21 samples.

Results

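The comparison described here sets tumours grown from 2 Ern1 knockout lines, KO1 and KO2, against tumours of the wild-type (WT) line. It uses 10 of the 21 RNA-seq libraries of the study: 3 KO1 tumours, 3 KO2 tumours and 4 WT tumours, chosen by their labels. The cells are Myc-CaP, mouse prostate cancer cells that carry a Myc transgene, in KO and WT alike, and the tumours were grown in FVB mice. Each KO line was made with Cas9 and the same guide RNA, and the WT tumours come from 1 line, so a difference between KO and WT is also a difference between lines. The labels give neither the ages of the mice nor whether a line is 1 clone. A further line, KO3, was left out because its tumours had been seen to hold higher levels of XBP1s target genes. The falls of those genes in KO1 and KO2 tumours are therefore described and are not independent support.

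IRE1α, the product of Ern1, is a sensor in the membrane of the endoplasmic reticulum (ER). When unfolded proteins load the ER, its RNase cuts Xbp1 mRNA, and the rejoined mRNA encodes XBP1s, a transcription factor that raises genes of protein entry into the ER, glycosylation, folding, export and degradation. The same RNase can also degrade other mRNAs at the ER. ATF6 and PERK are the other sensors of this unfolded protein response, and PERK acts through the factor ATF4. Secretory epithelium such as prostate makes heavy use of this machinery.

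The guide sequence is shown because it defines the KO lines. Its 20 bases in lower case match the coding part of exon 2 of Ern1 (ENSMUSG00000020715), on the minus strand of chromosome 11 in GRCm38 at chr11:106458942-106458961, and the capitals mark the PAM read from the transcript.
Ern1 guide with PAM: gcttgcatgctgttagcaagAGG
Ern1 mRNA had 88.1, 80.7 and 77.5 CPM in KO1 tumours and 72.9, 87.8 and 75.3 CPM in KO2 tumours, against 67.7, 82.3, 76.3 and 66.0 CPM in WT tumours. The groups overlapped, and the log2 fold change of KO over WT was 0.14 ± 0.097 (SE; adjusted p = 0.444, edgeR). Counts per gene carry no trace of a few bases gained or lost, so the edit itself is not checked by this value. The total mRNA of Xbp1 had 59.3, 50.7 and 50.3 CPM in KO1 tumours and 62.2, 76.9 and 66.6 CPM in KO2 tumours, against 96.6, 83.7, 93.0 and 68.4 CPM in WT tumours, at -0.49 on the log2 scale (adjusted p = 0.0613, edgeR). Spliced and unspliced Xbp1 were not told apart.

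Total counts ran from 15994285 to 27497796 in KO tumours and from 16613959 to 27164051 in WT tumours, so that 3 counts were worth 0.105 to 0.240 CPM (counts scaled to a common library size, with TMM factors). Of 13860 genes tested with edgeR's quasi-likelihood test, 762 passed an adjusted p of 0.05, which is 5.5%. Of these, 205 were higher and 557 lower in KO tumours, 1.48% and 4.02% of the genes tested, and 78 and 144 of them differed by 2-fold or more. The 6 KO tumours all lay above the 4 WT tumours for 415 genes (2.99%) and all below for 808 genes (5.83%). The median log2 fold change of all genes was -0.01. WT tumour replicate 1 stood apart in markers of muscle, fat, red cells and neutrophils, and in WT tumour replicate 4 the gene Yam1, at a ribosomal RNA locus, took 24.0% of the counts, against 6.21% to 8.47% in KO tumours. Without both, 404 of 14375 genes passed, 89 higher (0.619%) and 315 lower (2.19%); all 762 genes kept their sign there and 342 of them passed. The calls also rest on the number of tumours: without WT replicate 2 alone 353 genes passed, and 240 genes, 48 higher and 192 lower, passed with each of the 10 libraries left out in turn and without WT replicates 1 and 4. The tests treat tumours as the units, and with counts summed per line 2 genes passed.

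Genes of the ER machinery were lower in KO tumours, from protein entry to export. Of 44 XBP1s target genes, all of them tested, 37 fell and none rose, with a median log2 fold change of -0.96, and in 37 members every KO tumour lay below every WT tumour, as did 5.83% of all genes. Without WT replicates 1 and 4 the count was 36. Their summed level was 5706, 5550.3 and 5712 CPM in KO1 tumours and 5908, 6055 and 6158 CPM in KO2 tumours, against 10315, 11385, 10481 and 11122 CPM in WT tumours. Each KO tumour lay well below the lowest WT tumour. The 7 members that did not pass were Spcs1, Fkbp14, Edem3, Sec31a, Pdia3, Sel1l and Derl2, with log2 fold changes between -0.16 and -0.58. The lists of entry, folding, export and degradation below share members with this list, such as Sec61b, Txndc11, Lman1 and Edem1. The falls of shared members are likewise described and are not independent support. The choice of lines also bears on other genes that were higher in KO3 tumours than in KO1 and KO2 tumours. Their falls are described in the same way.

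Sec24d, a coat protein of the vesicles that leave the ER, had the smallest p of all genes. It had 19.1, 17.4 and 20.4 CPM in KO1 tumours and 15.4, 16.03 and 17.8 CPM in KO2 tumours, against 72.0, 85.0, 74.1 and 72.5 CPM in WT tumours. The groups were far apart, and the log2 fold change was -2.10 ± 0.099 (SE; adjusted p = 7.74e-07, edgeR). Dnajb9, a co-chaperone of the ER chaperone BiP, had 15.7, 12.1 and 10.7 CPM in KO1 tumours and 15.1, 11.1 and 13.8 CPM in KO2 tumours, against 39.3, 44.2, 53.9 and 56.0 CPM in WT tumours. Its log2 fold change was -1.88 ± 0.14 (SE; adjusted p = 2.56e-05, edgeR), at -1.92 in KO1 and -1.84 in KO2. In KO3 tumours, shown for orientation only, Sec24d had 57.4, 52.5 and 49.0 CPM and Dnajb9 37.5, 40.3 and 35.5 CPM.

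**Figure D1:**
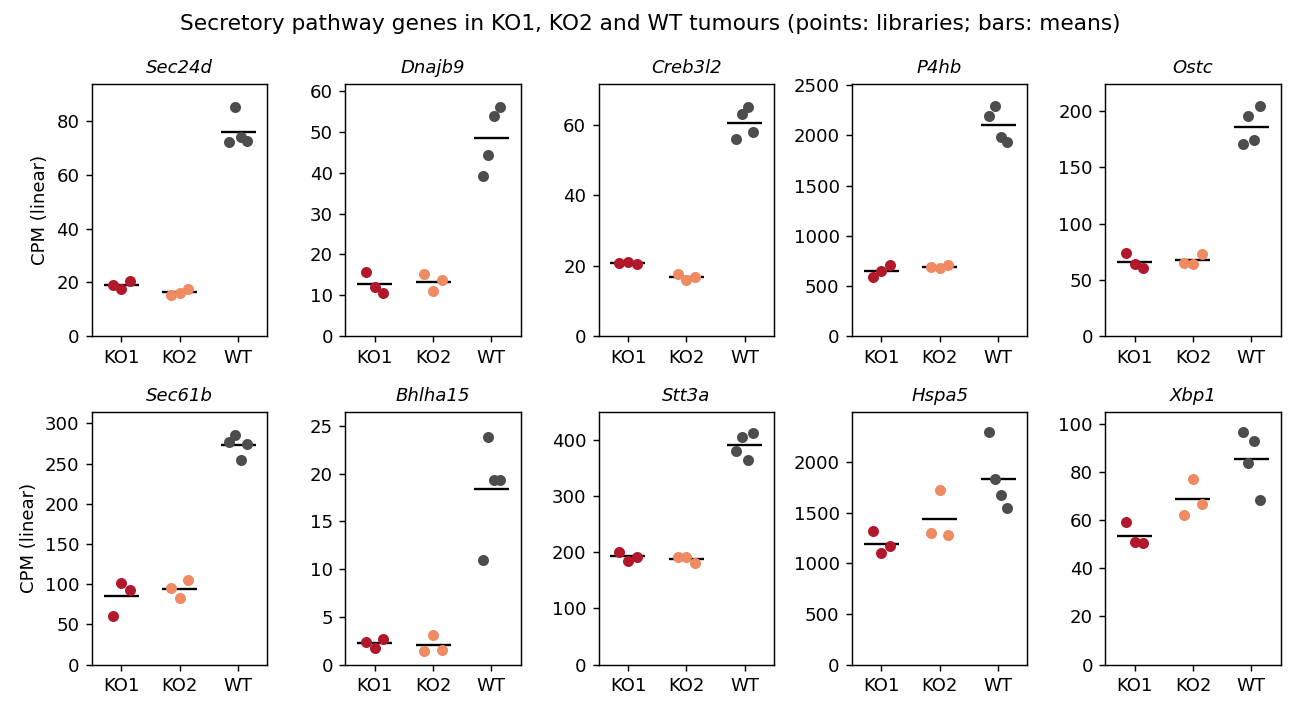
Level of 10 genes of the secretory pathway in each tumour (CPM, linear axis from 0; points are libraries, bars are group means). For Sec24d, Dnajb9, Creb3l2, P4hb, Ostc, Sec61b, Bhlha15 and Stt3a all 6 KO tumours lie below all 4 WT tumours, while Hspa5 and Xbp1 overlap.

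Stretches of promoters are shown for some members that fell and hold a motif of ER stress factors. They are from RefSeq promoters (GRCm38.p6), of which 250 bases before the start were searched on both strands. Capitals mark the motif. The core of the unfolded protein response element is TGACGTG. The ER stress element is CCAAT, any 9 bases, then CCACG, and the ER stress element II is ATTGG, any 1 base, then CCACG; the last 5 letters of both are the same. The stretches lie at Sec24d chr3:123267450-123267495 and Txndc11 chr16:11134557-11134654 (minus strand), and at Creld2 chr15:88819500-88819558, Dnajc3 chr14:118937807-118937865, Pdia6 chr12:17266471-17266529 and Herpud1 chr8:94386357-94386407, the others on the plus strand.
Sec24d: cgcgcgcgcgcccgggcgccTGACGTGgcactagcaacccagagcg
Txndc11: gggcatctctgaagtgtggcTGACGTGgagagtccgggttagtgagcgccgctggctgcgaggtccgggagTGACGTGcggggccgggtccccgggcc
Creld2: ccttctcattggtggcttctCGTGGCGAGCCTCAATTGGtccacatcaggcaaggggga
Dnajc3: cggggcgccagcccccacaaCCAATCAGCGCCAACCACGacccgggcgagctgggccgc
Pdia6: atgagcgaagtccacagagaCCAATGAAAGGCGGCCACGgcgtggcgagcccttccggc
Herpud1: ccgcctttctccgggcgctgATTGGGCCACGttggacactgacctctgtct
The core TGACGTG stood in 4 of 44 promoters of XBP1s targets (9.09%, from the 34 of 44 genes matched in the table), those of Sec24d, Txndc11, Kdelr3 and Txndc5, against 542 of 32851 promoters (1.65%) and 277 of 12682 promoters of genes tested (2.18%). Txndc11 holds it at 2 places in this window. The ER stress element stood in 4 promoters of XBP1s targets (9.09%) and in 6 of 10 promoters of ATF6 targets (60.0%), against 37 of all promoters (0.113%) and 16 of those of genes tested (0.126%). The ER stress element II stood in 1 promoter of each list, that of Herpud1, against 10 of all promoters (0.0304%) and 6 of those of genes tested (0.0473%). The ER stress element also stood at Hspa5, Hsp90b1 and Calr, which did not pass. In the translocon list 0 of 18 promoters held either ER stress element and 1 held TGACGTG. In the oligosaccharyltransferase list 0 of 13 promoters held any of these motifs, although most members of both lists fell. A match is a description of these letters and shows no binding.

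Protein entry into the ER was lower at most of its steps. Of 25 genes of the translocon, the signal recognition particle (SRP) and signal peptidase, 20 fell and none rose, with a median of -0.73, against 4.02% lower among all genes. The list's highest log2 fold change, 9.26, was also the highest of all genes tested, in a member that did not pass. Sec61b, a subunit of the channel itself, had 60.2, 102 and 92.3 CPM in KO1 tumours and 95.4, 82.6 and 105 CPM in KO2 tumours, against 276, 285, 255 and 275 CPM in WT tumours. Its log2 fold change was -1.61 ± 0.14 (SE; adjusted p = 4.13e-05, edgeR), and the channel's main subunit Sec61a1 fell by 1.20. Ssr2, of the translocon-associated complex, averaged 169 ± 12.7 CPM in KO tumours and 380.0 ± 29.8 CPM in WT tumours (SD, n = 6 and 4), and the signal peptidase subunit Spcs2 averaged 64.8 ± 1.70 CPM in KO tumours and 142 ± 19.8 CPM in WT tumours (SD, n = 6 and 4). Srpr and Srprb, the SRP receptor, fell by 0.91 and 0.93 on the log2 scale, and the SRP proteins Srp68, Srp19, Srp9 and Srp72 by 0.48 to 0.73. Without WT replicates 1 and 4, 14 of the 25 passed.

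Nearly all subunits of the enzyme that attaches sugar chains were lower. Of 12 subunits of the oligosaccharyltransferase, which acts on proteins as they enter the ER, 11 fell and none rose, against 4.02% lower among all genes. Their median was -0.86, and 9 passed without WT replicates 1 and 4. The 12 subunits summed to 2610, 2656 and 2661 CPM in KO3 tumours. They summed to 1540 to 1778 CPM in KO1 and KO2 tumours and to 2789 to 3120 CPM in WT tumours. The choice of lines thus bears on this list, and its falls are not independent support. The subunit Ostc had 73.6, 64.6 and 60.9 CPM in KO1 tumours and 64.7, 64.5 and 73.3 CPM in KO2 tumours, against 171, 196, 174 and 204 CPM in WT tumours, and the catalytic subunit Stt3a had 201, 184 and 192 CPM in KO1 tumours and 191, 191 and 181 CPM in KO2 tumours, against 380.4, 405, 363 and 412 CPM in WT tumours. Their log2 fold changes were -1.48 ± 0.09 and -1.04 ± 0.08 (SE), with adjusted p of 5.14e-06 and 2.84e-05 by edgeR. Stt3b, the other catalytic subunit, fell by 0.38, the smallest fall that passed in the list, and Tusc3 was at 0.05 with an adjusted p of 0.810.

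Folding enzymes were lower, but several of the most abundant chaperones did not pass. Of 32 ER chaperones and disulfide isomerases, 22 fell and none rose, against 4.02% lower among all genes. Their median was -0.72, and 17 passed without WT replicates 1 and 4. P4hb, the main protein disulfide isomerase, had 595, 647 and 711 CPM in KO1 tumours and 688, 683 and 710.2 CPM in KO2 tumours, against 2192, 2288, 1982 and 1936 CPM in WT tumours. The log2 fold change was -1.64 ± 0.102 (SE; adjusted p = 5.14e-06, edgeR). The thioredoxin-like Txndc11 averaged 16.7 ± 1.08 CPM in KO tumours and 46.1 ± 7.95 CPM in WT tumours (SD, n = 6 and 4), and Ero1lb, which oxidises the isomerases, 18.6 ± 2.81 CPM in KO tumours and 50.4 ± 4.80 CPM in WT tumours (SD, n = 6 and 4). By contrast, Hspa5, which encodes BiP, had 1316, 1103 and 1171 CPM in KO1 tumours and 1305, 1727 and 1276 CPM in KO2 tumours, against 2296, 1829.6, 1673 and 1545 CPM in WT tumours. KO and WT tumours overlapped, with a log2 fold change of -0.48 ± 0.15 (SE; adjusted p = 0.0898, edgeR). Hsp90b1, Calr and Pdia3, further abundant chaperones and isomerases, were at -0.25, -0.17 and -0.23, with adjusted p of 0.297, 0.380 and 0.308.

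Genes of export from the ER and of disposal of misfolded proteins had smaller median changes. Of 32 genes of the COPII and COPI coats and their cargo receptors, 20 fell and none rose, against 4.02% lower among all genes. Their median was -0.46, and 18 passed without WT replicates 1 and 4. Besides Sec24d the genes that fell included the cargo receptors Lman1 and Surf4, at -1.04 and -1.08, and the coat's GTPase regulator Arfgap3 at -0.76. The closely related coat genes Sec24a, Sec24b and Sec24c were at -0.22, -0.38 and -0.40, of which Sec24b alone passed (adjusted p = 0.0101, edgeR). Of 21 tested genes of ER-associated degradation, 8 fell and none rose, against 4.02% lower among all genes. Their median was -0.33, and 6 passed without WT replicates 1 and 4. The 8 include Edem1 and Edem2, which direct misfolded glycoproteins to degradation, at -1.34 and -1.08. Vimp averaged 66.9 ± 6.37 CPM in KO tumours and 162 ± 23.9 CPM in WT tumours (SD, n = 6 and 4). The cytosolic ATPase Vcp, which pulls proteins out of the ER, was at -0.10 with an adjusted p of 0.577.

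The other stress branches did not share one pattern. Of 12 ATF6 targets, 8 fell and none rose (6 without WT replicates 1 and 4), against 4.02% lower among all genes. Creld2, Manf, Dnajb11, Hyou1 and Herpud1 among the 8 are on the XBP1s list as well. Of the remaining ones, Ero1lb, Pdia4 and Canx fell. Among 6 sensors and their factors 2 fell, beside 4.02% lower among all genes. Atf6 and Eif2ak3, the gene of PERK, fell by 0.65 and 0.64 on the log2 scale. The call of Eif2ak3 was lost without WT replicate 2 (adjusted p = 0.0582, edgeR). Of 27 ATF4 targets 3 fell, Sars, Mthfd2 and Atf3, and 1 rose, Psph, with a median of -0.31, beside 4.02% lower and 1.48% higher among all genes. Atf3 lost its call without any 1 of the KO1 tumours and without KO2 replicate 1 or 3, with adjusted p from 0.0734 to 0.0815 by edgeR. With single libraries left out, Psph kept its call without KO1 replicate 1 and lost it in the other 9 cases, and 2 of the 4 passed without WT replicates 1 and 4. In cultured KO1 and KO2 cells 21 of 25 tested ATF4 targets rose, with a median of 0.64, against 16.7% of all genes higher there. Ddit3, the stress factor CHOP, had 5.63, 6.41 and 5.02 CPM in KO1 tumours and 10.5, 16.7 and 8.81 CPM in KO2 tumours, against 52.9, 18.3, 14.6 and 12.8 CPM in WT tumours, and WT replicate 1 was the highest. In cells it had 22.7 and 21.97 CPM in KO1 cells and 19.7 and 19.9 CPM in KO2 cells, against 6.31 and 5.13 CPM in WT cells. None of 8 reported substrates of IRE1's RNA decay passed in tumours; Bloc1s1, the best known, was at 0.03 with an adjusted p of 0.936 by edgeR. Of the 8, 0 were under an unadjusted p of 0.05 and 0 passed by DESeq2.

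Creb3l2, a transmembrane transcription factor of the secretory pathway, was the 1 of 6 CREB3 family genes and proteases that fell, beside 4.02% lower among all genes. It had 20.8, 21.0 and 20.4 CPM in KO1 tumours and 17.8, 16.03 and 16.8 CPM in KO2 tumours, against 55.8, 62.9, 65.1 and 58.0 CPM in WT tumours. The groups were separate, with a log2 fold change of -1.69 ± 0.103 (SE; adjusted p = 5.14e-06, edgeR). Bhlha15, known as Mist1, a factor that XBP1s induces in secretory cells of mice, had 2.34, 1.74 and 2.71 CPM in KO1 tumours and 1.48, 3.14 and 1.55 CPM in KO2 tumours, against 10.9, 23.8, 19.4 and 19.3 CPM in WT tumours, a log2 fold change of -3.09 ± 0.26 (SE; adjusted p = 4e-05, edgeR). In KO3 tumours Creb3l2 had 66.3, 65.0 and 63.7 CPM and Bhlha15 13.2, 12.1 and 15.6 CPM. The choice of lines thus bears on Creb3l2 and Bhlha15 too, and their falls are not independent support.

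**Figure D2:**
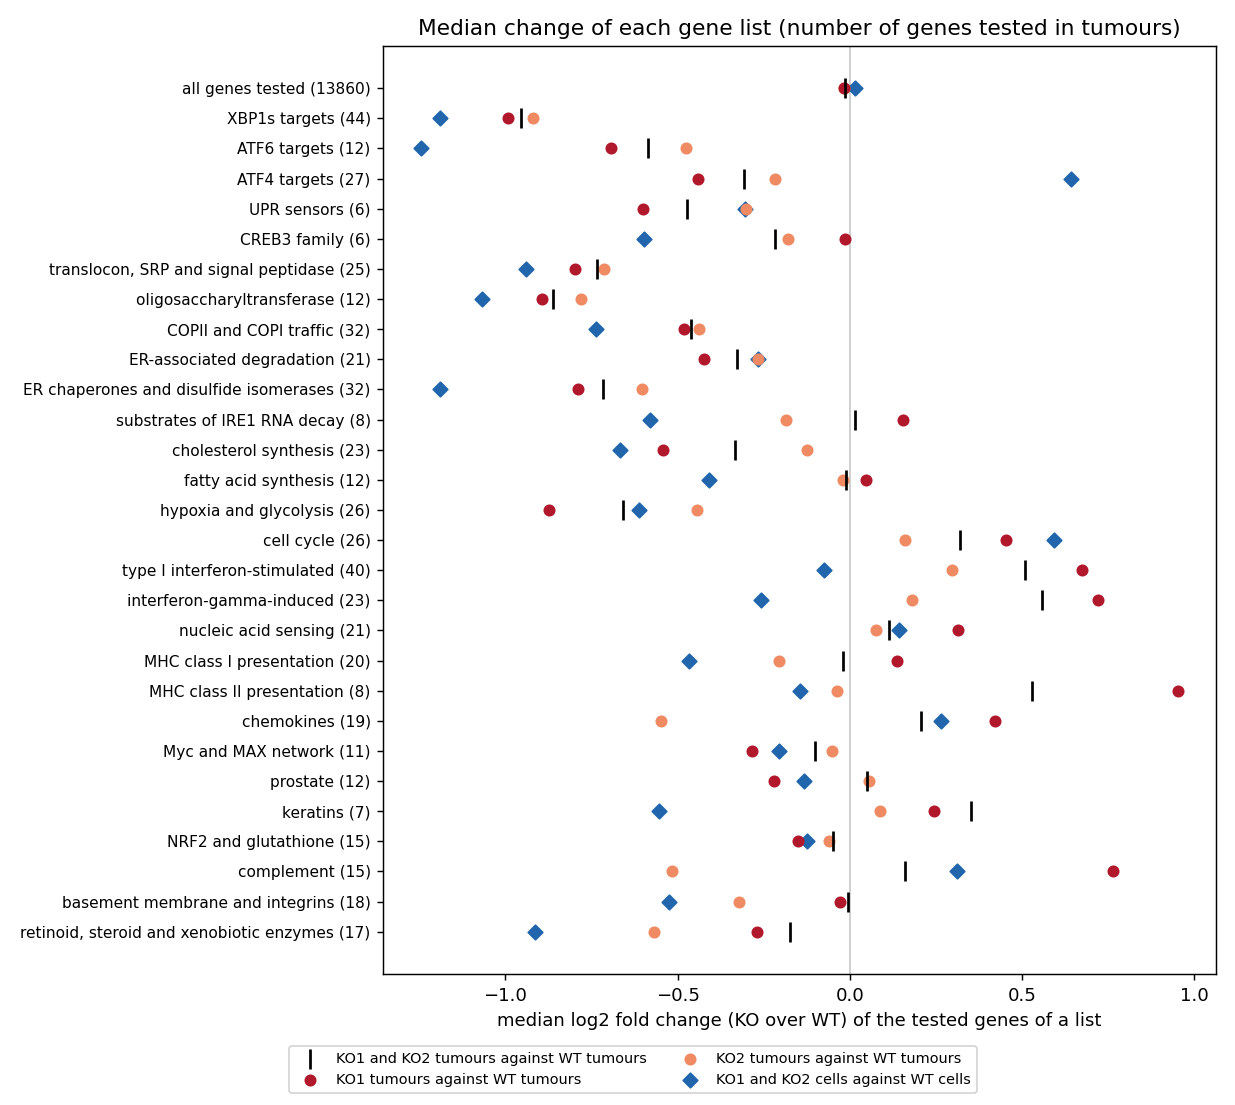
Median log2 fold change of KO over WT for each gene list (number of genes tested in tumours in brackets), for the KO1 and KO2 tumours together, each line alone, and cultured cells. XBP1s targets lie at -0.96 in tumours, with KO1 at -0.99 and KO2 at -0.92, while ATF4 targets lie at -0.31 in tumours and 0.64 in cells.

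Position on the genome marked a further set of lower genes. Among 10515 genes whose mean log2 CPM was 2 or more, 4.74% were called lower. On chromosome 3 the share was 135 of 510 genes (26.47%) and on chromosome 16 it was 46 of 332 (13.86%), whereas on the other chromosomes it ran from 2.6% to 4.86%. The median log2 fold change was -0.32 on chromosome 3 and -0.19 on chromosome 16, and between -0.06 and 0.04 elsewhere. By library, the median of chromosome 3 genes relative to the WT mean was -0.26, -0.36 and -0.35 in KO1 tumours and -0.28, -0.28 and -0.28 in KO2 tumours, against -0.06, 0.02, -0.01 and 0.05 in WT tumours. For chromosome 16 it was -0.15, -0.26 and -0.21 in KO1 tumours and -0.20, -0.19 and -0.19 in KO2 tumours, against -0.08, 0.04, -0.02 and 0.04 in WT tumours.

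All 6 KO tumours lay below all 4 WT tumours on both chromosomes. The lower level ran along chromosome 3, where the medians of all windows of 10 Mb with at least 20 such genes lay between -0.42 and -0.18. On chromosome 16 it was lowest in the first 30 Mb, with window medians of -0.27, -0.32 and -0.29, and -0.11, -0.04, -0.13 and -0.12 in the later windows. KO1 and KO2 cells showed it in culture too: chromosome 3 genes were at -0.34 and -0.32 in KO1 cells and at -0.33 and -0.36 in KO2 cells, and 265 of 485 were called lower. KO3 tumours had -0.25, -0.15 and -0.25 on chromosome 3 and -0.18, -0.10 and -0.17 on chromosome 16, and KO3 cells had -0.30 and -0.30 on chromosome 3 and -0.16 and -0.19 on chromosome 16. This pattern was noticed in the data and has no test here, and the DNA of the lines was not analysed here.

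**Figure D3:**
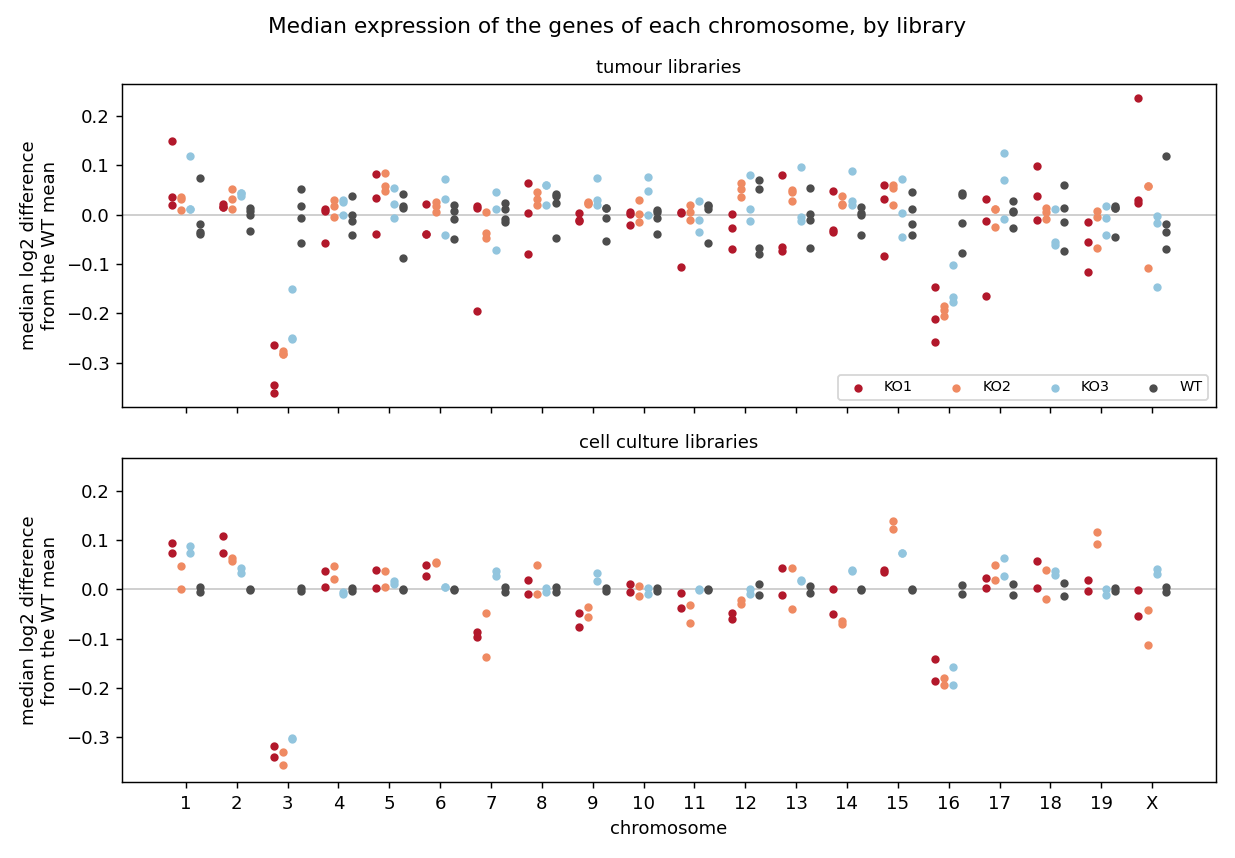
Median over the genes of each chromosome of the log2 difference from the mean of the WT libraries, for each tumour (upper panel) and each cell library (lower panel). KO libraries lie between -0.36 and -0.15 on chromosome 3 and between -0.26 and -0.10 on chromosome 16, below all WT libraries.

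These chromosomes bear on the counts above. Of 556 genes called lower with a known position, 191 lay on chromosome 3 or 16 (34.4%), against 8.21% of all tested genes. Without these chromosomes 563 of the called genes remained, 198 higher and 365 lower, counted from the same fit. The ER lists kept most of their falls: without these chromosomes 29 of 36 XBP1s targets fell, with a median of -0.91, as did 17 of 22 genes of entry, 9 of 10 oligosaccharyltransferase subunits, 18 of 28 chaperones and isomerases and 17 of 29 coat genes. Sec24d, Ostc and Ssr2 lie on chromosome 3, at log2 fold changes of -2.10, -1.48 and -1.17, well beyond the chromosome's median. For members with smaller falls on these chromosomes, such as Fdps at -0.82 and Sars at -0.67 on chromosome 3 and Abcc1 at -0.62 on chromosome 16, the fall is given without taking the chromosome's median off.

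Nebl was nearly absent from KO tumours, and other genes outside the ER were lower. Nebl, an actin-binding protein of the nebulin family, had 0.334, 0.787 and 0.201 CPM in KO1 tumours and 0.0703, 0.190 and 0.187 CPM in KO2 tumours, against 11.7, 21.3, 13.3 and 20.1 CPM in WT tumours. It had the largest fall among the genes named by the rules, with a log2 fold change of -5.86 ± 0.45 (SE; adjusted p = 2.84e-05, edgeR). The chloride channel Cftr had 1.28, 0.899 and 0.653 CPM in KO1 tumours and 1.72, 3.47 and 1.12 CPM in KO2 tumours, against 12.5, 15.8, 14.3 and 9.37 CPM in WT tumours. In cultured cells Nebl had 0 and 0 CPM in KO1 cells and 0 and 0 CPM in KO2 cells, against 1.04 and 1.057 CPM in WT cells, and KO was again below WT. The carbonyl reductase Cbr1, on chromosome 16, had 2.28, 1.18 and 0.954 CPM in KO1 tumours and 0.843, 0.571 and 0.843 CPM in KO2 tumours, against 7.18, 6.89, 5.52 and 2.88 CPM in WT tumours, and Mga, a partner of MAX in the Myc network, had 11.6, 6.63 and 5.47 CPM in KO1 tumours and 4.53, 4.14 and 2.81 CPM in KO2 tumours, against 18.98, 13.01, 19.5 and 20.3 CPM in WT tumours. Mga had 0 counts in every KO1 and KO2 cell library, against 16.3 and 16.9 CPM in WT cells, and its call in tumours was lost without WT replicates 1 and 4 (adjusted p = 0.1001, edgeR). Among the KO3 tumours Nebl had 0.328, 0.377 and 0.617 CPM, Cbr1 1.02, 1.04 and 2.04 CPM and Mga 4.26, 6.78 and 6.31 CPM, whereas Cftr had 7.94, 10.5 and 10.2 CPM.

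Further falls concerned genes of unlike function. Fga, a fibrinogen chain that hepatocytes are best known for secreting, had 40.5, 37.2 and 34.7 CPM in KO1 tumours and 84.7, 41.2 and 51.6 CPM in KO2 tumours, against 425, 253, 202 and 144 CPM in WT tumours, a log2 fold change of -2.40 ± 0.33 (SE; adjusted p = 0.00225, edgeR). Its gene lies on chromosome 3, and its call was lost without the line KO1 (adjusted p = 0.0596). Apcdd1, an inhibitor of Wnt signals, and the serine protease Prss53 were at -1.92 and -1.93. Apcdd1 did not pass without the line KO1 (adjusted p = 0.0895, edgeR) or without the line KO2 (adjusted p = 0.0779), nor Prss53 without the line KO1 (adjusted p = 0.0524). Cntnap2, a neuronal adhesion protein, was at -1.92, a call that was lost without WT replicates 1 and 4 (adjusted p = 0.0903, edgeR). Of 17 enzymes of retinoid, steroid and foreign-compound metabolism 5 fell, Cyp26b1, Adh1, Fmo2, Cyp2b10 and Fmo1, and 1 rose, Cyp2f2, beside 4.02% lower and 1.48% higher among all genes. The call of Fmo1 was lost without KO1 replicate 2 or 3, KO2 replicate 2 or 3 or any 1 of the 4 WT tumours, and that of Fmo2 without WT replicate 4 (adjusted p = 0.054, edgeR). Without WT replicates 1 and 4 the adjusted p was 0.177 for Fmo1 and 0.192 for Fmo2, and 3 of the 17 fell. Cyp26b1, which degrades retinoic acid, averaged 1.61 ± 0.196 CPM in KO tumours and 4.37 ± 1.59 CPM in WT tumours (SD, n = 6 and 4), and its adjusted p without the line KO1 was 0.0653.

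Hypoxia and glycolysis genes lay below the median of all genes. Of 26, 5 fell and none rose, with a median of -0.66, beside 4.02% lower among all genes. The count ran from 3 to 16 with each library left out in turn, 16 without KO2 replicate 2 and 3 without KO1 replicate 3 or WT replicate 2, and without WT replicates 1 and 4 it was 1, Adm. The glycolytic enzyme Pgk1 had 589.5, 712 and 707 CPM in KO1 tumours and 923, 1005 and 854 CPM in KO2 tumours, against 1695, 1589, 1259 and 1518 CPM in WT tumours, a log2 fold change of -0.92 ± 0.16 (SE; adjusted p = 0.00491, edgeR). Without WT replicates 1 and 4 its adjusted p was 0.0549. Adm, the vasodilator peptide adrenomedullin, had 1.67, 1.46 and 0.803 CPM in KO1 tumours and 1.16, 2.57 and 1.499 CPM in KO2 tumours, against 22.2, 6.47, 4.08 and 4.64 CPM in WT tumours, and WT replicate 1 was the highest by far. The glucose transporter Slc2a1, the collagen prolyl hydroxylase P4ha1 and the ER oxidase Ero1l were at -1.08, -0.64 and -0.73. The call of Slc2a1 was lost without KO1 replicate 3 or WT replicate 2 alone, and those of Slc2a1 and P4ha1 without WT replicates 1 and 4. In KO1 the median was -0.87 and in KO2 -0.44. Of 23 cholesterol synthesis genes 1 fell, Fdps, a share near the 4.02% of all genes, and its adjusted p with the leukocyte marker score as a covariate was 0.106 by edgeR. Of 12 fatty acid genes Acaca rose by 0.45 and Srebf1 fell by 0.38, beside 1.48% higher and 4.02% lower among all genes. Both calls were lost without WT replicates 1 and 4, without WT replicates 2 or 3 alone and without further single libraries.

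Genes that rose were fewer. Lcn10, a lipocalin known from the epididymis, had the smallest p among them and 114, 109.9 and 123.1 CPM in KO1 tumours and 110.1, 121 and 138 CPM in KO2 tumours, against 34.8, 29.7, 39.6 and 43.8 CPM in WT tumours. Its log2 fold change was 1.69 ± 0.12 (SE; adjusted p = 2.12e-05, edgeR), and it was at most 0.236 CPM in every KO1, KO2 and WT cell library. Psca, prostate stem cell antigen, had 639, 554 and 879 CPM in KO1 tumours and 659, 506 and 774 CPM in KO2 tumours, against 284, 193, 243 and 225 CPM in WT tumours. KO tumours lay above WT tumours throughout, with a log2 fold change of 1.4999 ± 0.17 (SE; adjusted p = 0.000359, edgeR). In cells Psca went the other way, with 122.7 and 125 CPM in KO1 cells and 206 and 194 CPM in KO2 cells, against 313 and 302 CPM in WT cells. Vil1, villin of intestinal and renal brush borders, had 9.86, 11.5 and 12.2 CPM in KO1 tumours and 12.3, 16.7 and 15.5 CPM in KO2 tumours, against 1.65, 1.76, 1.20 and 3.36 CPM in WT tumours. Cfap46, a protein of motile cilia, had 6.24, 5.79 and 5.77 CPM in KO1 tumours and 4.85, 5.95 and 8.48 CPM in KO2 tumours, against 0.534, 0.306, 1.02 and 0.721 CPM in WT tumours, a log2 fold change of 3.28 ± 0.33 (SE; adjusted p = 0.000141, edgeR).

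Further rises were those of Ncmap, a myelin-associated protein, at 1.73, Cyp2f2, a cytochrome P450 of airway club cells, at 2.27, and Xlr, an X-linked gene of a family of close copies, at 1.63. Gsta4, a glutathione transferase, had 36.9, 37.5 and 35.0 CPM in KO1 tumours and 49.7, 49.2 and 45.7 CPM in KO2 tumours, against 14.9, 13.2, 17.8 and 21.3 CPM in WT tumours. Angpt4, an angiopoietin, Celsr2, an adhesion receptor of the cadherin family, and Pik3r6, a subunit of PI3-kinase gamma, were at 2.38, 1.95 and 1.72. Anpep, Trim44 and Ano9 rose by 0.91, 0.94 and 1.19. Each of these passed with every library left out in turn and without WT replicates 1 and 4.

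Of 12 tested genes of the prostate programme, 3 rose and none fell, beside 1.48% higher among all genes. Psca was among them, as was Klk1, a tissue kallikrein, with 15.9, 11.4 and 17.1 CPM in KO1 tumours and 21.9, 13.9 and 25.1 CPM in KO2 tumours, against 6.75, 1.99, 3.18 and 5.04 CPM in WT tumours. Klk1 belongs to a family of closely similar genes, so the division of reads within it is uncertain. Myc, which includes the transgene only if its reads were assigned to this gene, averaged 259 ± 65.7 CPM in KO tumours and 388 ± 70.8 CPM in WT tumours (SD, n = 6 and 4) and had an adjusted p of 0.0900. The summed level of 10 luminal markers was 1363 to 1613 CPM in KO tumours, against 1293 to 1851 CPM in WT tumours. Pbsn and Sbp, prostate secretory genes, were at 0 in all 10 tumours.

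**Figure D4:**
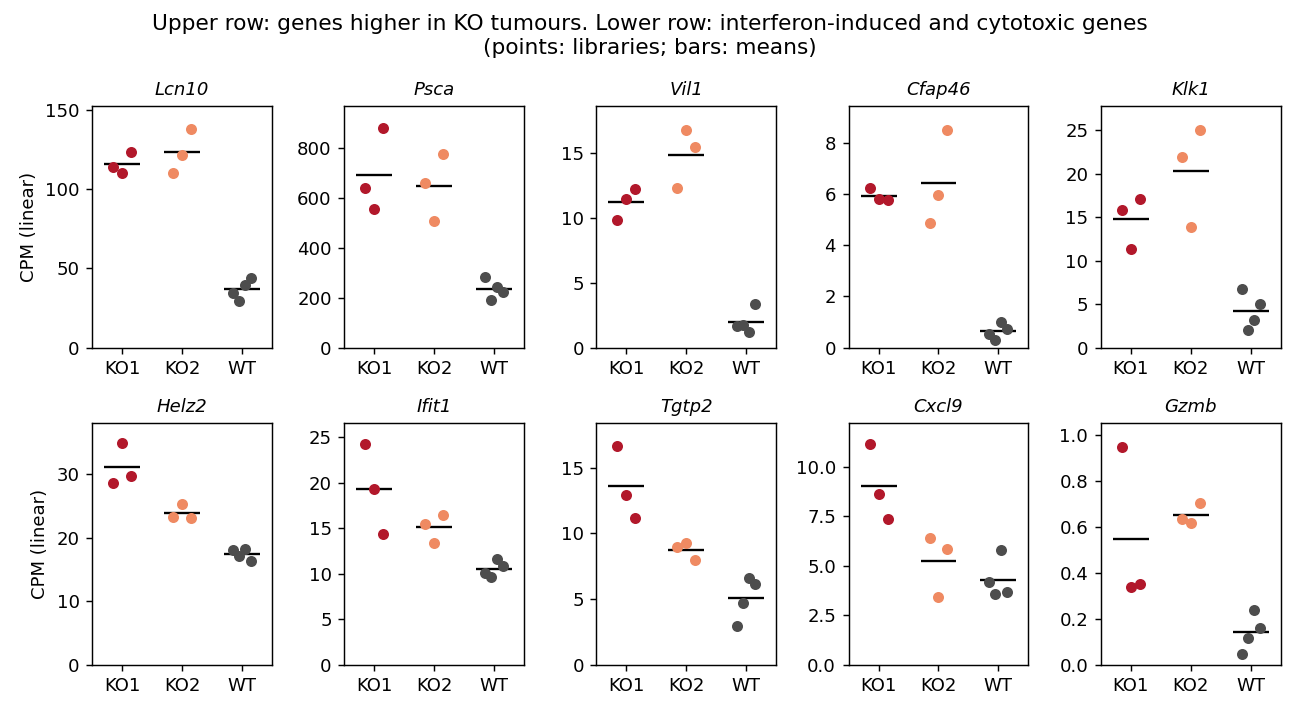
Level of 10 genes in each tumour (CPM, linear axis from 0; points are libraries, bars are group means). In the upper row all 6 KO tumours lie above all 4 WT tumours; in the lower row this holds for Helz2, Ifit1, Tgtp2 and Gzmb but not for Cxcl9, and the KO1 mean exceeds the KO2 mean there except for Gzmb.

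Interferon-induced genes leaned upward with few calls. Of 40 type I interferon-stimulated genes 5 rose and none fell, namely Helz2, Ddx58, Parp9, Ifit1 and Herc6, or 12.5% beside 1.48% higher among all genes; their median was 0.51. The count ran from 1 to 7 with each library left out in turn, 1 without WT replicate 2, and it was 2 with limma voom and the line as a random block and 2 with WT replicates 3 and 4 summed. The list's summed level overlapped between the groups, at 1384 to 1757 CPM in KO tumours and 1171 to 1494 CPM in WT tumours. WT replicate 1 was the highest of the WT tumours. Helz2, a coactivator with a helicase domain, had 28.5, 34.9 and 29.7 CPM in KO1 tumours and 23.3, 25.2 and 23 CPM in KO2 tumours, against 18.1, 17.1, 18.2 and 16.3 CPM in WT tumours. Ifit1, which binds viral RNA, had 24.3, 19.3 and 14.4 CPM in KO1 tumours and 15.4, 13.4 and 16.4 CPM in KO2 tumours, against 10.0, 9.64, 11.6 and 10.9 CPM in WT tumours. The log2 fold changes were 0.65 ± 0.13 and 0.71 ± 0.17 (SE), with adjusted p of 0.0122 and 0.0304 by edgeR. Ddx58, the RNA sensor RIG-I, averaged 43.8 ± 6.19 CPM in KO tumours and 29.9 ± 2.20 CPM in WT tumours (SD, n = 6 and 4). None of these 5 passed without WT replicates 1 and 4, where the adjusted p of Helz2, Ddx58, Parp9, Ifit1 and Herc6 were 0.0805, 0.0950, 0.0635, 0.150 and 0.124 by edgeR and Dtx3l was the 1 gene of the list to pass. Ifit1 also failed without KO1 replicate 2, KO2 replicate 3 or any 1 of the 4 WT tumours, Ddx58 without WT replicate 2, and Parp9 without KO1 replicate 2, KO2 replicate 1 or 3, or WT replicate 2, 3 or 4. Irf7, the factor that amplifies this response, averaged 43.2 ± 9.40 CPM in KO tumours and 30.8 ± 5.62 CPM in WT tumours (SD, n = 6 and 4) and had an adjusted p of 0.126.

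Of 23 tested genes induced by interferon gamma 2 rose and none fell, with a median of 0.56, beside 1.48% higher among all genes. The count was 0 to 2 with each library left out in turn, and 0 with length-scaled counts and with limma voom and the line as a random block. The list's summed level was 226 to 362 CPM in KO tumours and 162 to 217 CPM in WT tumours. Tgtp2, a GTPase against pathogens inside cells, had 16.7, 12.9 and 11.2 CPM in KO1 tumours and 8.93, 9.23 and 7.96 CPM in KO2 tumours, against 2.96, 4.71, 6.597 and 6.16 CPM in WT tumours, and Irgm1, of the same GTPase class, had 49.6, 51.0 and 37.2 CPM in KO1 tumours and 43.7, 35.4 and 43.2 CPM in KO2 tumours, against 22.9, 28.0, 30.6 and 35.9 CPM in WT tumours. The adjusted p of Tgtp2 was 0.0277 and that of Irgm1 0.0411 by edgeR. Neither passed without WT replicates 1 and 4 (adjusted p = 0.116 and 0.0919), where Gbp6 was the 1 gene of the list to pass, and Tgtp2 did not pass without KO1 replicate 2, KO1 replicate 3 or WT replicate 2. Irgm1 did not without KO1 replicate 1 or 2, KO2 replicate 1 or 3, or WT replicate 1, 2 or 3. Tgtp2 and Tgtp1 are near-identical copies, so that the division of their reads is uncertain. Cxcl9 and Cxcl10, chemokines that draw T cells, were at 0.73 and 0.56 with adjusted p of 0.169 and 0.357. Medians were 0.67 in KO1 and 0.30 in KO2 for the type I list, and 0.72 and 0.18 for the interferon gamma list. In cells the medians were -0.08 and -0.26.

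Of the 7 interferon-induced genes called in both lists, 6 were matched to a promoter, and the 3 that hold an interferon response core are shown, that is GAAA, any 2 bases, then GAAA, searched on both strands, at Ifit1 chr19:34640765-34640833 (plus strand), Irgm1 chr11:48871421-48871470 and Tgtp2 chr11:49064253-49064302 (minus strand) in GRCm38.p6. The 250 bases before the start of Helz2, Ddx58 and Herc6 hold no match, and Parp9 was not matched. Capitals mark the core.
Ifit1: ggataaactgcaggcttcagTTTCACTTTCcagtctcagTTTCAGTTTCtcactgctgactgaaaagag
Irgm1: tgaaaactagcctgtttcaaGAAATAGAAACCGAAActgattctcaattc
Tgtp2: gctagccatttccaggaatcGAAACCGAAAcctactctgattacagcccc
The core stood in 11 of 34 promoters of the type I list (32.4%) and 11 of 18 of the interferon gamma list (61.1%), against 978 of 32851 promoters (2.98%) and 330 of 12682 promoters of genes tested (2.6%).

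Summed markers of T cells and of cytotoxic cells were higher in KO tumours, at low levels, while sums for other host cells overlapped between KO and WT. In bulk tumours fewer cells of a type and less RNA per cell cannot be told apart. None of 12 T cell markers was at 0 in all 10 tumours, and their summed level was 8.64, 9.95 and 8.43 CPM in KO1 tumours and 6.36, 4.81 and 5.20 CPM in KO2 tumours, against 4.32, 4.51, 4.20 and 2.72 CPM in WT tumours. Each KO tumour was above each WT tumour, at levels of a few CPM. Of the 4 T cell markers that could be tested, 2 were under an unadjusted p of 0.05 and 0 passed by edgeR or DESeq2. In culture, without host cells, the 12 T cell markers summed to 1.69 and 2.06 CPM in KO1 cells and 1.88 and 1.42 CPM in KO2 cells. In WT cells they summed to 1.41 and 1.37 CPM. The part of the cancer cells in the tumour sums was not tested. The 13 markers of cytotoxic T and NK cells, of which Gzmk was at 0, summed to 9.75, 7.48 and 4.17 CPM in KO1 tumours and 3.58, 3.76 and 4.40 CPM in KO2 tumours, against 2.67, 2.14, 2.10 and 1.76 CPM in WT tumours. Of the 3 that could be tested Gzmb and Klrk1 rose, at 2.10 ± 0.50 and 1.51 ± 0.39 on the log2 scale (SE; adjusted p = 0.0283 and 0.0423, edgeR), and neither passed without WT replicates 1 and 4. Both also failed with single libraries left out, Gzmb without WT replicate 1, 2 or 4 and Klrk1 without KO1 replicate 1, 2 or 3, KO2 replicate 1 or 3, or any 1 WT tumour. Gzmb in WT tumours lay near the level of 3 counts.

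Sums of myeloid and stromal markers were higher in KO1 than in KO2 tumours, and WT tumours overlapped both. Macrophage markers summed to 1387, 1307 and 1045 CPM in KO1 tumours and 818, 866 and 624.97 CPM in KO2 tumours, against 1412, 684, 726 and 460.3 CPM in WT tumours, and fibroblast and pericyte markers to 3346, 3509 and 2490.1 CPM in KO1 tumours and 1335, 1143 and 952 CPM in KO2 tumours, against 3105, 1558, 1323 and 691 CPM in WT tumours. None of the 17 macrophage and 16 fibroblast members tested passed by edgeR; 7 and 0 were under an unadjusted p of 0.05, and DESeq2 called 5 and 0. WT replicate 1 was as high as KO1. With a leukocyte marker score as a covariate 738 genes passed, 120 higher and 618 lower, and none of Helz2, Ddx58, Parp9, Ifit1, Tgtp2 and Irgm1 did, with adjusted p from 0.254 to 0.422 by edgeR. In 1 of the score's 8 members every KO tumour lay above every WT tumour, and the largest log2 fold change among them was 3.25. The score thus holds part of the KO and WT grouping, so these losses cannot show the part of host cells. The part of host cells in the interferon-induced genes was not tested.

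Class I antigen presentation did not differ detectably. Of 20 genes 0 passed by edgeR or DESeq2 and 0 were under an unadjusted p of 0.05, with a median of -0.02. B2m averaged 2744 ± 505 CPM in KO tumours and 3252 ± 441 CPM in WT tumours (SD, n = 6 and 4) and H2-K1 287 ± 54.8 CPM in KO tumours and 308 ± 63.4 CPM in WT tumours (SD, n = 6 and 4), with adjusted p of 0.390 and 0.765 by edgeR. In KO1 and KO2 cells the median was -0.47, and 10 of 18 tested genes fell, beside 19.5% of all genes there. The checkpoint ligand Cd274 averaged 4.23 ± 1.05 CPM in KO tumours and 5.18 ± 1.84 CPM in WT tumours (SD, n = 6 and 4) and had an adjusted p of 0.547. Of 19 chemokines Cxcl2, which draws neutrophils, was the 1 that fell, beside 4.02% of all genes, with 0.223, 0.112 and 0.0502 CPM in KO1 tumours and 0.211, 0.476 and 0.375 CPM in KO2 tumours, against 33.9, 1.07, 0.660 and 0.801 CPM in WT tumours. WT replicate 1 held nearly all of it; without that tumour the log2 fold change was -1.78 and the adjusted p 0.071 by edgeR, and the call was also lost without any 1 KO tumour or WT replicate 2. The 12 neutrophil markers summed to 316 CPM in that tumour and to at most 11.5 CPM in the others. Cd8a was too low to be tested.

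**Figure D5:**
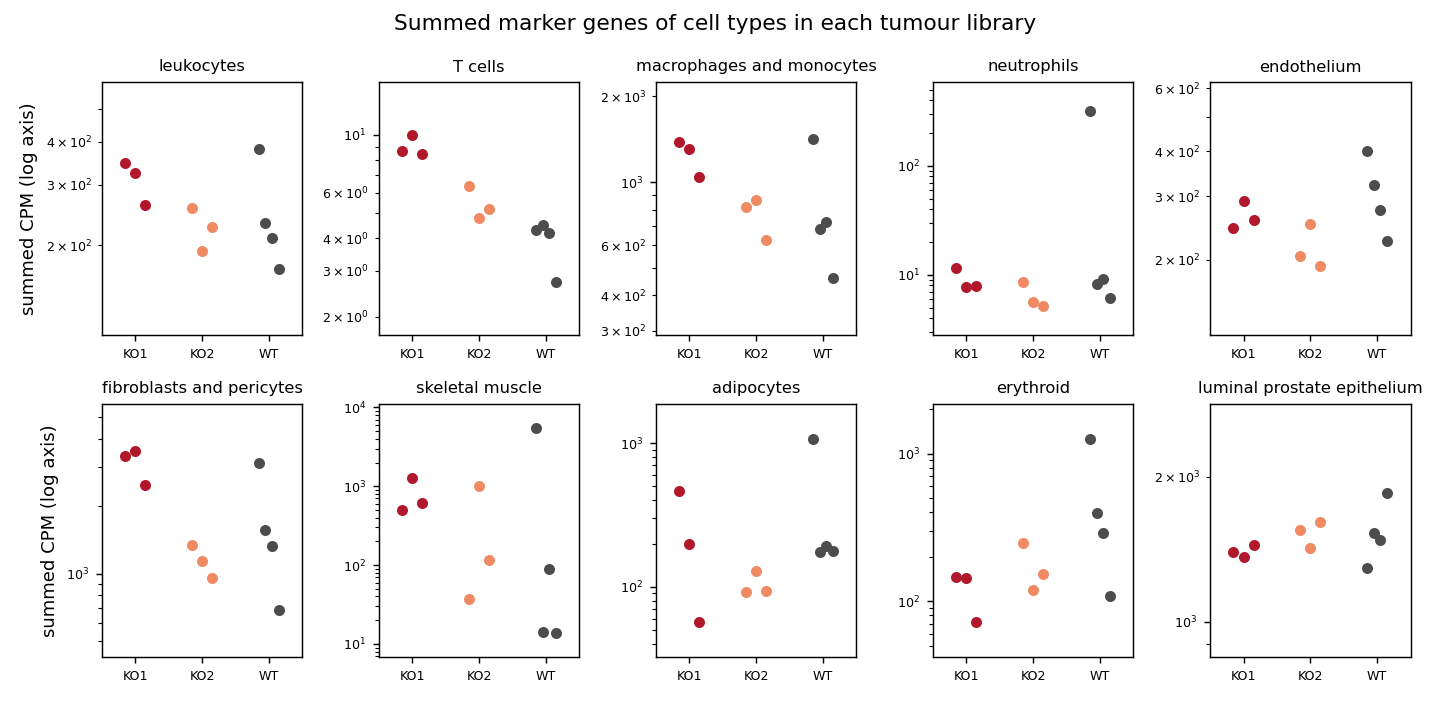
Summed level of marker genes of 10 cell types in each tumour (CPM, log axis; points are libraries). WT replicate 1 holds 5457 CPM of skeletal muscle and 316 CPM of neutrophil markers, T cell markers are higher in all 6 KO tumours, and fibroblast markers are higher in KO1 than in KO2.

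The lines KO1 and KO2 were compared directly. Between them 74 of 14192 genes passed (0.521%), 28 higher and 46 lower in KO1, against 1286 (9.06%) for KO1 and 365 (2.57%) for KO2 over WT. Relative to WT, Dnajb9 was at a log2 fold change of -1.92 in KO1 and -1.84 in KO2, and Ostc at -1.49 in KO1 and -1.45 in KO2. The adjusted p of KO1 against KO2 was 0.494 for Sec24d, 0.898 for Dnajb9 and 0.919 for Ostc by edgeR. Chosen after their values were seen, Lgals3bp, a secreted glycoprotein that interferon induces, was at 1.03 in KO1 and -0.03 in KO2 relative to WT. The signalling inhibitors Cish and Rgs2 were lower in KO1, at -1.27 and -1.93, than in KO2, at 0.38 and -0.68. The cholesterol enzymes Sqle and Msmo1 were at -0.72 and -0.90 in KO1 and at 0.32 and 0.01 in KO2. Cps1, the first enzyme of the urea cycle, was at -2.05 in KO1 and 0.76 in KO2.

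Tumour calls were set beside cultured cells of the same lines, where 4349 of 12025 genes passed (36.2%). Of 510 genes lower in KO tumours and tested in cells, 385 were also lower in KO cells (75.5%), against 19.7% lower among all genes tested in both, and 15 were higher. These include genes of chromosomes 3 and 16, which held 34.4% of the genes called lower in tumours with a known position. On chromosome 3, 265 of 485 genes were lower in cells, and the shared calls were not counted without these chromosomes. Of 165 genes higher in KO tumours, 54 were higher in KO cells (32.7%, against 16.8%) and 38 were lower. The tumour and cell libraries share the lines but no samples. Among XBP1s targets 40 of 44 fell in cells, and the median was -0.96 in tumours and -1.19 in cells. Manf, a secreted ER protein, was at -0.94 in tumours and -2.01 in cells, and Hspa5 at -0.48 in tumours and -1.36 in cells. The difference between tumours and cells was not tested. Several of the strongest rises could be read in tumours alone: Lcn10, Klk1, Cyp2f2 and Cfap46 were too low in cells to be tested.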

How the data were processed

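PolyA RNA of 21 samples was sequenced as paired reads of 50 bases with a stranded kit, per the labels' protocols and the series' design text. The deposited tables hold estimated counts per gene for 45706 genes, made with Salmon 1.5.2 after Trim Galore 0.6.7 and STAR against GRCm38, per the submitters' processing notes, which give no order of steps. The deposited estimated counts were rounded to whole numbers. Genes of near-identical sequence share reads, and their division is Salmon's estimate. Genes were filtered with filterByExpr, scaled with TMM and tested with edgeR 4.0.16 (quasi-likelihood, robust, R 4.3.3), with Benjamini-Hochberg adjustment over all genes tested and a threshold of 0.05. The 6 KO tumours were set against the 4 WT tumours with no covariate. Alternatives used DESeq2 1.42.0, limma 3.58.1, other scalings, filters, blocks and left-out libraries. The code was tested on simulated data.

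The members, gene lists and rules were chosen with earlier results of these data known. Named genes were the 12 largest rises and 12 largest falls without overlap, the 10 smallest p in each direction that held in every left-out fit, up to 4 members of each list, and a short fixed set; other list members given as examples were chosen after their values were seen. Some genes that these rules name are not reported here. Nothing states that the tumours came from separate animals beyond their labels, and WT replicates 3 and 4 carry the same number in their descriptions, so p-values measure the spread between these samples. The floor of 3 counts covers counting error only.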

Additional observations from a re-analysis of the deposited data

Results flagged for a closer look

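Among 192 sets of values, 16 held a tumour whose gap to the nearest other tumour of its group was large for the group's range by Dixon's 95% limit. Chance gives about 1 in 20. WT replicate 1 accounted for 8 of them, WT replicate 2 for 3, KO1 replicate 1 for 2, and KO1 replicate 2, KO2 replicate 1 and KO2 replicate 2 for 1 each. What lies behind these values was not tested.

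Among KO tumours, Hspa5 reached 1727 CPM in KO2 replicate 2, next to 1316 CPM in the nearest tumour, and Fga 84.7 CPM in KO2 replicate 1, next to 51.6 CPM. Nebl reached 0.787 CPM in KO1 replicate 2, next to 0.334 CPM, still far under every WT tumour. Cbr1 reached 2.28 CPM in KO1 replicate 1, next to 1.18 CPM, and adipocyte markers summed to 464 CPM there, next to 199 CPM.

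In WT tumour replicate 1, skeletal muscle markers summed to 5457 CPM, next to 90.4 CPM in the nearest WT tumour. Adipocyte markers summed to 1073 CPM, next to 193 CPM, neutrophil markers to 316 CPM, next to 9.06 CPM, and chemokines to 1043 CPM, next to 178 CPM. Markers of skin keratinocytes summed to 10.8 CPM, next to 7.08 CPM. Adm reached 22.2 CPM, next to 6.47 CPM, Ddit3 52.9 CPM, next to 18.3 CPM, and Bst1, an ectoenzyme of myeloid and stromal cells, 14.998 CPM, next to 3.72 CPM. In WT replicate 2, Sec24d was highest at 85.0 CPM, next to 74.1 CPM, as was the summed oligosaccharyltransferase at 3120 CPM, next to 2824 CPM, and Ncmap was lowest at 4.40 CPM, next to 7.12 CPM.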

How the results depend on the processing

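Of 190 genes that the naming rules chose, the 88 that passed kept their direction under every alternative that gave a value, and 38 of the other 102 changed direction under at least 1. Leaving out WT replicates 1 and 4 together ended 28 of the 88 calls. Leaving out a line ended 27 of the 88 calls without KO1 and 18 without KO2, and the leukocyte score as a covariate ended 30. Against 762 genes called for KO1 and KO2 tumours over WT, the count was 1446 with DESeq2, 1255 with all 13 tumours in the fit, 465 with limma voom and the line as a random block, 527 with WT replicates 3 and 4 summed (131 higher and 396 lower), 404 without WT replicates 1 and 4, 349 without the line KO1 and 2 with counts summed per line. With each library left out in turn it lay between 353 and 692. Other scaling, filtering and length-scaled counts gave 563 to 717. Of the 762 calls, 563 had a known position outside chromosomes 3 and 16, which were chosen after seeing the data. This is a count of the same calls and not a new fit. With the replicate number as a block the count was 391, with 0 called members of either interferon list; same-numbered tumours correlated between -0.36 and 0.16 in their deviations, so the numbers were not taken to pair the tumours. For KO1 over WT the 1286 genes became 2108 with DESeq2 and 557 to 2266 with libraries left out, highest without WT replicate 1 and lowest without KO1 replicate 2. For KO2 the 365 genes became 935 with DESeq2 and 119 to 550 with libraries left out, lowest without KO2 replicate 1. For cells the 4349 genes became 2167 to 4714. XBP1s targets called lower were 30 to 39 under all alternatives but the sum per line, which called 0. DESeq2 called 11 type I interferon-stimulated, 4 interferon gamma and 14 hypoxia genes, against 5, 2 and 5. With the leukocyte score as a covariate, which holds part of the KO and WT grouping, no interferon-induced gene of either list passed. The causes were not tested. Depth limits Gzmb, Cxcl2 and other genes near 3 counts.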

Other observations

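These gene families were put together after their values were seen, so their counts describe the data and carry no test. Among all genes tested 1.48% were called higher and 4.02% lower. Of 12 tested kallikreins of the Klk1 cluster, secreted serine proteases of gland ducts, 10 were called higher in KO tumours, with log2 fold changes from 0.60 to 2.06 and a median of 1.45; they are close copies that share reads. Klk1b21 had 147, 105 and 117 CPM in KO1 tumours and 59.5, 54.7 and 73.9 CPM in KO2 tumours, against 33.2, 18.3, 34.4 and 27.8 CPM in WT tumours, and its call was lost without WT replicates 1 and 4 (adjusted p = 0.0786, edgeR). All 3 fibrinogen chains were called lower. They are neighbours on chromosome 3. Fgb, the most abundant, had 1206, 1221 and 926 CPM in KO1 tumours and 1305, 1302 and 1305 CPM in KO2 tumours, against 4438, 4495, 3239 and 2162 CPM in WT tumours, with no overlap. Fgg had 61.5, 58.3 and 50.5 CPM in KO1 tumours and 153, 109 and 107 CPM in KO2 tumours, against 418, 275, 274 and 262 CPM in WT tumours, and KO1 was lower than KO2 (adjusted p = 0.031, edgeR).

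Steps next to protein glycosylation and export were lower too. The counts below stand beside 4.02% lower and 1.48% higher among all genes. Of 25 genes of sugar donors and the lipid-linked oligosaccharide, 11 were called lower and none higher, with a median of -0.51; they include Gfpt1, the entry enzyme of the hexosamine pathway, and Dpagt1, the first enzyme of the lipid-linked chain. Of 8 genes of UFM1 conjugation, a tag that ribosomes at the ER receive, 5 were called lower, among them Ufl1, Ufm1 and Cdk5rap3, with a median of -0.57. Of 12 tested genes of ER-to-Golgi tethers and SNAREs, 8 were called lower, with a median of -0.53. Of 9 subunits of the ER membrane protein complex, which inserts membrane proteins, 1 was called lower, Emc7, with a median of -0.19. Of 29 tested genes of cilia and their transport, 4 were called higher, Cfap46, Ift81, Bbs9 and Cfap36, with a median of 0.18.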
